A study of Mus musculus with 10 samples.

Results

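Articular-like cells of the Grem1 lineage were compared according to whether a transcript of Foxo1, a forkhead transcription factor, had been counted in them. The cells were chosen by the counts of a single-cell table: at least 350 genes with a unique molecular identifier (UMI, the tag that marks 1 captured transcript), a sum of Clu, Cilp and 1500015O10Rik of at least 2.5% of the cell's UMIs, and that sum above the UMIs of Cnmd. The rule kept 337 of the 684 Grem1-lineage cells with at least 350 genes, out of 768 Grem1-lineage wells and 930 wells in the whole series. Foxo1 was above 0 in 118 of the 337 cells and at 0 in the other 219. Clu, Cilp, 1500015O10Rik and Cnmd chose the cells and Foxo1 divided them, so their levels are given as description only, and Foxo1 and the pair of annotated genes that overlap it were taken out of the counts.

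The cells came from C57BL/6 mice that carried a Rosa-TdTomato reporter and an inducible Cre driven by Grem1 (Grem1-creERT), given tamoxifen in chow for 2 weeks from 5 to 6 weeks of age. All cells compared here, with or without Foxo1, share this genotype and treatment, and no Foxo1 allele was changed in them. Articular cartilage and growth plate were cut from hind limbs, minced and digested with collagenase, and single live TdTomato-positive cells were sorted into 96-well plates with no antibody against blood or endothelial cells in the gate used for them. The other lineage of the series, traced with the constitutive Lepr-cre, filled 162 wells and was not used in the tests. The 8 Grem1-TdT plates, numbered 1, 2, 4, 5, 6, 7, 8 and 9, are the replicates. Plates are not labelled by tissue or by animal and cells of several mice were grouped. With plate as a block, p-values here measure how far the difference within a plate varied between plates. They do not measure the spread between animals. All 96 well barcodes recur on each Grem1-TdT plate, since they mark wells.

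FoxO proteins bind forkhead motifs in DNA and are held in the cytoplasm when insulin or growth factor signalling phosphorylates them through AKT. In the nucleus they raise genes for cell cycle arrest, autophagy and defence against oxidants, and in articular cartilage they are known for maintaining the superficial cells and for declining with age and joint disease. The comparison addresses whether articular-like cells in which Foxo1 was detected differ in other transcripts from those in which it was not.

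The label was checked on 9 articular cartilage genes that the rule did not use. These genes were listed with earlier results of these data known, so the check is not an independent one. By the median over plates, 8 of the 9 were higher in the chosen cells than in the other 347 Grem1-lineage cells. Gas1, a membrane protein of growth-arrested cells, had a median of 3374 CPM (UMIs scaled to a total of 1000000) in articular-like cells and 221 CPM in the others, and was higher on 8 of 8 plates. Creb5, a transcription factor of the joint surface, stood at 403 CPM and 62.8 CPM, also higher on 8 of 8 plates. Gdf5 was near 0 in both, and Fn1, encoding fibronectin, went the other way, with 4925 CPM against 7480 CPM. The growth plate markers Cnmd and Epyc summed to 4442 CPM in articular-like cells and 23190.0 CPM in the others, but Cnmd was part of the rule. The sum of 6 fibroblast and synovium markers was also higher in articular-like cells, at 23470.5 CPM against 3001 CPM, on 8 of 8 plates. Most of it was Dcn, at 23206 CPM against 2919 CPM. Col3a1 was higher on 8 of 8 plates and Dpt on 7 of 8, and by the median 3 of the 6 were higher. Whether fibroblast or synovium cells were among the chosen cells was not tested. The Grem1-lineage table used here ends at Gm5763 and covers 29183 of the 50508 genes of the Lepr-lineage table. Genes past that point, among them Grem1, Prg4 and Sox9, were not analysed here, and a gene outside the table says nothing of its level.

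Foxo1 was sparse. Of the 118 cells with it, 84 held 1 UMI, 18 held 2, 10 held 3, 5 held 4 and 1 held 5. The share of articular-like cells with Foxo1 was 35.0%, and ran from 22.7% to 45.7% over the plates with a median of 36.2%. It was 24.8% among the other 347 cells, which were deeper (median 2006 against 1222 UMIs), and 11.9% among the 84 wells under 350 genes, whose median was 501.5 UMIs. No cell type that should lack Foxo1 was at hand to set a background. A count of 0 allows up to 3 transcripts of the total, which at the median depth of the cells without Foxo1 is a level of up to 2586 CPM, whereas 1 UMI at the median depth of the cells with it is 751 CPM. The cells at 0 are therefore cells in which Foxo1 was not detected at this depth.

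Cells with Foxo1 were also the deeper cells. Their median was 1332 UMIs and 554.5 genes per cell, against 1160 UMIs and 494 genes in the cells without it. The median UMIs per cell was higher with Foxo1 on 7 of 8 plates, the exception being plate 5. Each plate gave 10 to 18 cells with Foxo1, whose sums held 11751 to 26031 UMIs, and 19 to 39 without, whose sums held 22764 to 41587. The share of UMIs in the 3 genes of the rule was 5.16% with Foxo1 and 4.51% without, as medians over cells, and was higher with Foxo1 on 5 of 8 plates. Near the limits of the rule, the lowest share inside was 2.56% and the highest outside 2.46%, and the fewest genes in a cell that met the rule was 350 and the most in a cell that met its other parts but fell short was 346.

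**Figure D1:**
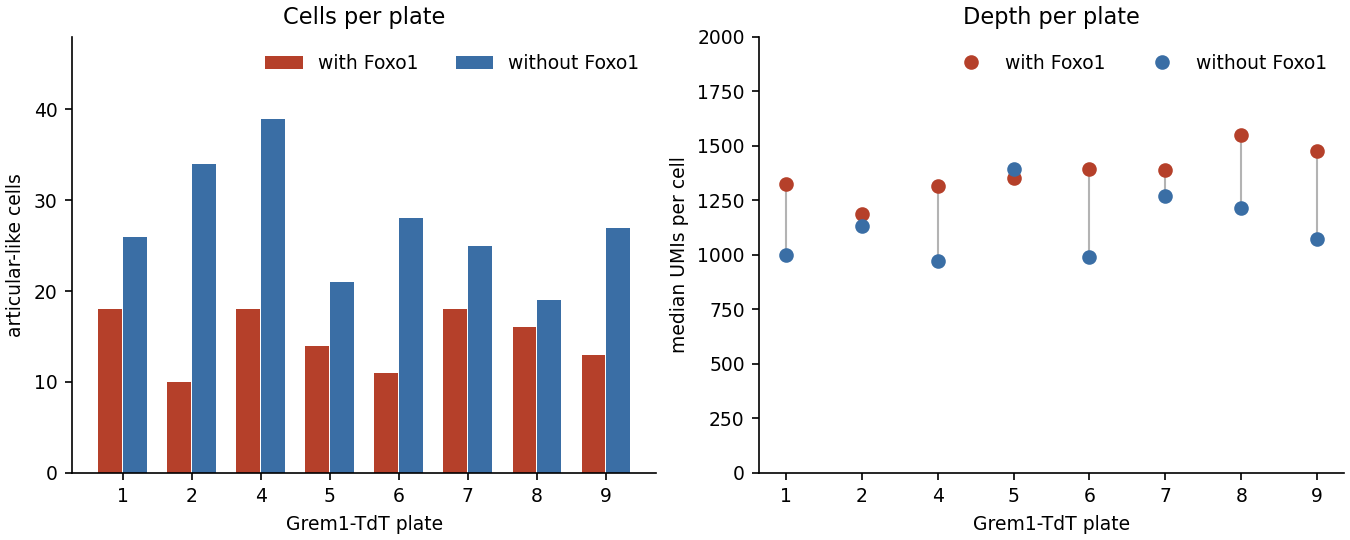
Articular-like cells per Grem1-TdT plate (left, bars from 0) and median UMIs per cell (right, points joined within a plate), with Foxo1 in red and without in blue. Each plate holds more cells without Foxo1, and the cells with Foxo1 have the higher median depth on 7 of 8 plates.

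UMIs were summed per plate and group, which gave 8 sums of cells with Foxo1 and 8 without, and 637 genes with enough counts were tested with plate as a block. No gene passed the threshold: 0 of 637 (0%) passed an adjusted p of 0.05 in edgeR's quasi-likelihood test, with a lowest adjusted p of 0.186, and 0 passed in DESeq2. At an unadjusted p under 0.05, edgeR listed 28 genes (4.4% of those tested), 11 higher with Foxo1 (1.73%) and 17 lower (2.67%), and DESeq2 listed 6. The log2 fold changes, given throughout as with minus without Foxo1, were above 0 for 313 genes (49.1%), and their median was -0.002. In none of the 637 genes did the 8 values with Foxo1 lie clear of the 8 without it.

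The width of the 95% interval of a log2 fold change depended on the level of the gene. These intervals are per gene and are not adjusted for the number of genes tested. A difference larger than its half-width could therefore still miss the threshold. The intervals of Actb (0.19 to 0.63) and Col8a2 (0.56 to 1.82) lay above 0, and both genes had an adjusted p of 0.186 in edgeR's test. The median half-width of the 95% interval was 0.57 on the log2 scale over all genes. It was 0.62 for the 432 genes under 500 CPM and 0.26 for the 18 genes over 5000 CPM, or 1.54-fold and 1.20-fold. For 520 genes the whole interval lay within a 2-fold difference in either direction, and for 147 within 1.5-fold. The genes tested held 74.2% of the UMIs of these cells.

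**Figure D2:**
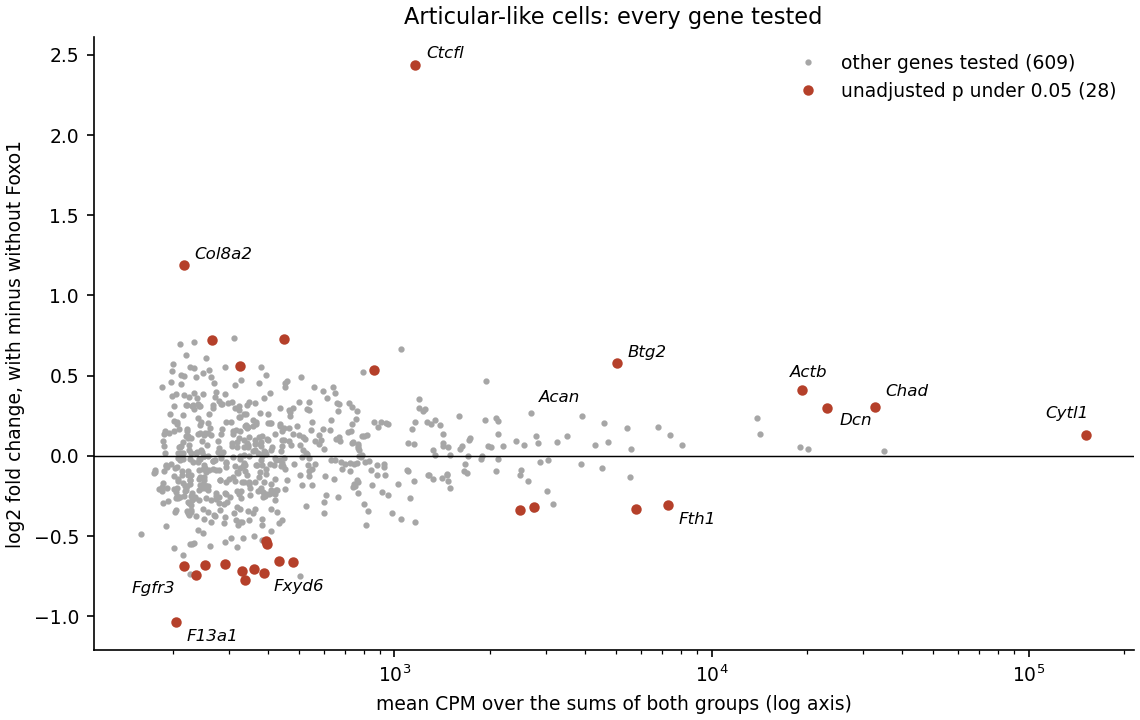
Log2 fold change (vertical axis) against mean CPM on a log axis for the 637 genes tested, with the 28 genes of unadjusted p under 0.05 in red. The points gather around 0 and spread more at low CPM, and no gene passed an adjusted p of 0.05.

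The genes with the lowest p in each direction are described next, and none of them passed. Actb, the cytoskeletal beta-actin (chr5:142903115-142906754, minus strand, GENCODE M21 on mm10), had a lowest, median and highest plate value of 5699, 26078 and 42342 CPM with Foxo1 and 4905, 18529 and 28421 CPM without it. The groups overlapped over most of their range, since plates 1, 2 and 4 lay below the other 5 plates in both groups, but within a plate the cells with Foxo1 had the higher value on 8 of 8 plates, although on plate 9 the values were all but the same (28211 and 28210.0 CPM). Its log2 fold change was 0.41 ± 0.10 (SE), adjusted p = 0.186.

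Col8a2, the alpha 2 chain of type VIII collagen (chr4:126286793-126314330, plus strand), had 56.5, 321 and 478 CPM with Foxo1 and 35.7, 136 and 211 CPM without it as lowest, median and highest. The low value in each group was plate 5, and the cells with Foxo1 were higher on 8 of 8 plates, by 1.19 ± 0.30 (SE), adjusted p = 0.186. The gene is rare: its 47 UMIs with Foxo1 came from 35 of 118 cells and its 36 without from 30 of 219, with at most 3 in a cell.

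Btg2, an antiproliferative gene of the early response to stress (chr1:134075170-134079120, minus strand), ran from 2501 to 8007 CPM with Foxo1 and from 1781 to 5705 CPM without it, with medians of 6474 and 4554. It was higher with Foxo1 on 7 of 8 plates, plate 6 being the exception. The log2 fold change was 0.58 ± 0.17 (SE), adjusted p = 0.487. Counting only cells with at least 2 Foxo1 UMIs against 0, which 4 plates could supply, the same value was 0.02. With the rule at 5% of UMIs in place of 2.5% it was 1.03 and passed, as the single gene to do so (adjusted p = 0.0265 in edgeR, with adjusted p of 0.232 or more in every other setting that tested it).

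The matrix genes Dcn and Chad and the translation factor Eif3h were also among the 10 lowest p on this side. Dcn encodes decorin, a small proteoglycan that binds collagen, and averaged 25558 ± 4864 CPM (SD, n = 8 plates) with Foxo1 and 20818 ± 3944 CPM without it, a log2 fold change of 0.30 ± 0.10 (SE) with the higher value in the cells with Foxo1 on 6 of 8 plates. Chad, encoding chondroadherin, a cartilage protein that chondrocytes bind, averaged 35731 ± 8283 CPM (SD, n = 8 plates) with Foxo1 and 29799 ± 10787 CPM without it, a log2 fold change of 0.31 ± 0.13 (SE), higher on 5 of 8 plates. Eif3h had 0.56 ± 0.26 (SE) and was higher on 7 of 8 plates. App, the amyloid precursor protein, had 0.53 ± 0.22 (SE), and the processed pseudogenes Gm14586 and Gm44705 had 0.73 and 0.72. The pseudogene counts are uncertain, since reads of a parent gene can be assigned to them.

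Ctcfl, a testis-restricted paralog of the insulator protein CTCF (chr2:173093609-173119525, minus strand), had the lowest p and the largest fold change of all 637 genes, and it rested on 2 cells. Its lowest, median and highest values were 45.2, 293 and 10306 CPM with Foxo1 and 0, 200.3 and 381 CPM without it, and the mean with Foxo1 was 2129 ± 3758 CPM (SD, n = 8 plates). Plates 2 and 7 held the high values, 5339 and 10306 CPM with Foxo1, and on the other 6 plates the groups overlapped. A single cell of plate 7 held 245 of the 341 Ctcfl UMIs with Foxo1, and a cell of plate 2 held 65, while the highest count in any cell without Foxo1 was 3. Each of these 2 cells had 1 Foxo1 UMI and none of the leukocyte or erythroid marker UMIs. With all cells the log2 fold change was 2.44 ± 0.59 (SE), adjusted p = 0.186. Without the 2 cells it was 0.04, with 31 UMIs in cells with Foxo1 and 55 in cells without.

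On the other side, Fxyd6, a regulator of the sodium pump (chr9:45370185-45396159, plus strand), was lower in the cells with Foxo1 on 8 of 8 plates. Its lowest, median and highest values were 159, 234 and 451 CPM with Foxo1 and 231, 503 and 672 CPM without it, so the ranges overlapped, and the log2 fold change was -0.73 ± 0.24 (SE), adjusted p = 0.721. Bambi, a decoy receptor that damps TGF-beta and BMP signals, was lower on 7 of 8 plates, with 0, 247 and 407 CPM with Foxo1 and 250.1, 339 and 516 CPM without it and a log2 fold change of -0.67 ± 0.30 (SE). F13a1, the A chain of coagulation factor XIII, had the most negative value, -1.04 ± 0.44 (SE), on 21 UMIs with Foxo1 and 67 without.

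Fth1, the heavy chain of the iron store ferritin, was an abundant gene of this group and was counted in all 337 cells. It averaged 6500.3 ± 1602 CPM (SD, n = 8 plates) with Foxo1 and 8062 ± 2038 CPM without it, was lower with Foxo1 on 6 of 8 plates, and had a log2 fold change of -0.31 ± 0.13 (SE). The remaining 6 genes of this side were D8Ertd738e at -0.66, Gm11361 at -0.74 and the pseudogenes Gm4950, Gm1821, Gm5321 and Gm5356, which lay between -0.77 and -0.33. Over the 141 processed pseudogenes tested the median log2 fold change was -0.03, and 6 had an unadjusted p under 0.05.

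**Figure D3:**
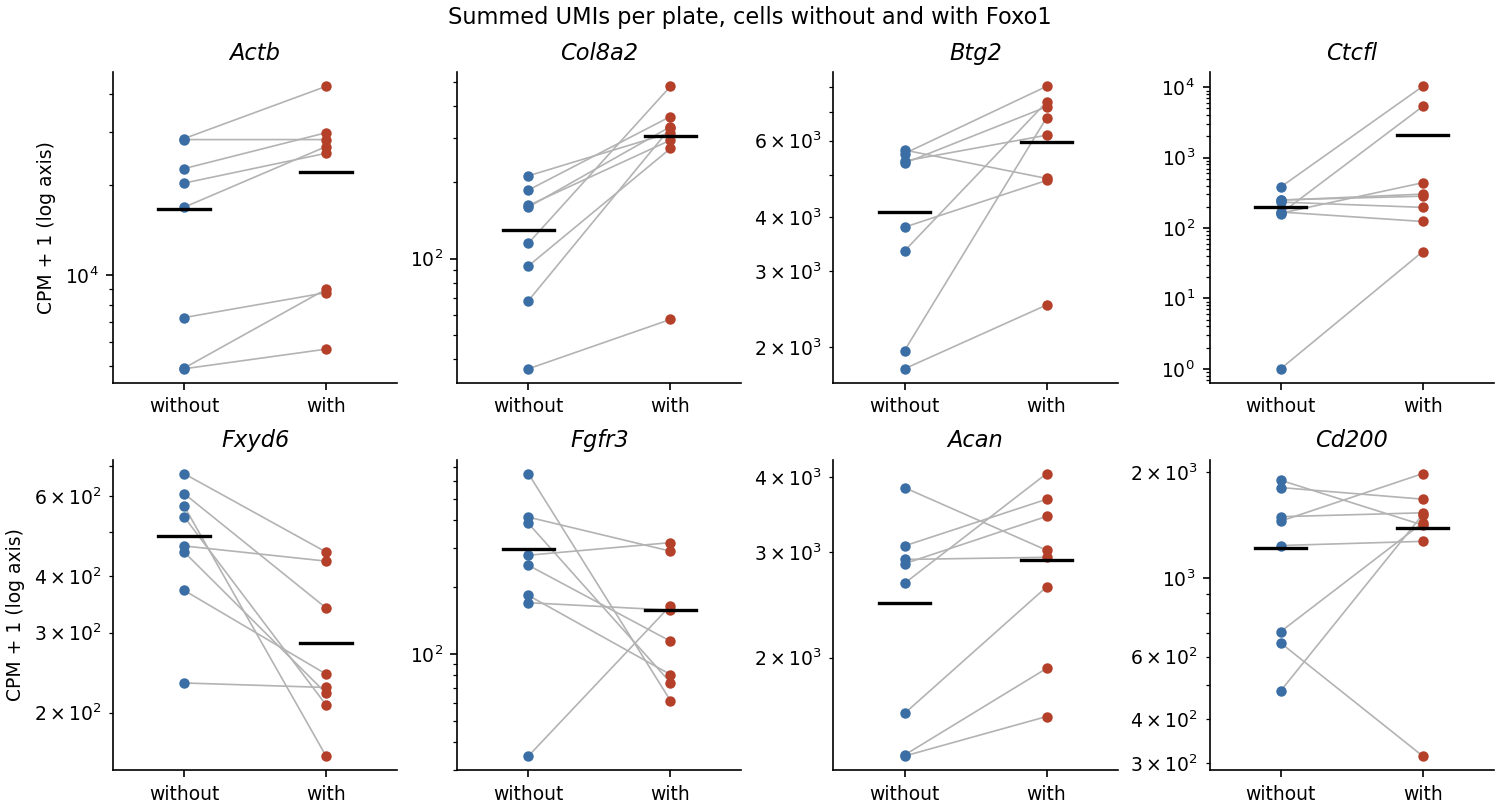
CPM + 1 on log axes for 8 genes, from the summed UMIs of each of 8 plates, in cells without Foxo1 (blue) and with it (red). Lines join the 2 groups of a plate and black bars are means. Actb and Col8a2 are higher with Foxo1 on 8 of 8 plates, with the Actb values of plate 9 all but the same, Fxyd6 is lower on 8 of 8, and the 2 high Ctcfl points are plates 2 and 7.

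Among the genes through which the study described these cells, Fgfr3, a receptor for fibroblast growth factors in chondrocytes, had 60.5, 135 and 317 CPM with Foxo1 and 33.6, 264 and 649.6 CPM without it as lowest, median and highest. The value was lower with Foxo1 on 6 of 8 plates, the exceptions being plates 1 and 8, and the log2 fold change was -0.74 ± 0.38 (SE) with a 95% interval of -1.54 to 0.06 (adjusted p = 0.985). Fgfr3 had a UMI in 21 of 118 cells with Foxo1 and 51 of 219 without. Acan, the large aggregating proteoglycan of cartilage, averaged 2909 ± 845 CPM (SD, n = 8 plates) with Foxo1 and 2465 ± 909.5 CPM without it and was higher with Foxo1 on 7 of 8 plates, by 0.27 ± 0.15 (SE). Cd200, a surface protein used to sort skeletal stem cells, had 0.20 ± 0.23 (SE) (interval -0.27 to 0.68). Col10a1, the collagen of hypertrophic chondrocytes, had -0.13 ± 0.28 (SE) and ranged from 587 to 10470.0 CPM with Foxo1 and from 1141 to 13467 CPM without, which was a larger spread between plates than between groups.

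Cytl1, a secreted cytokine-like protein of chondrocytes, was the most abundant transcript of these cells. It averaged 159089.9 ± 29817 CPM (SD, n = 8 plates) with Foxo1 and 145519 ± 29474 CPM without it, and although it was higher with Foxo1 on 8 of 8 plates the difference was small, 0.13 ± 0.06 (SE) (adjusted p = 0.985). The 4 genes of the rule had log2 fold changes of 0.06 for Clu, 0.14 for Cilp, 0.05 for 1500015O10Rik and 0.21 for Cnmd. Cnmd, an inhibitor of blood vessel growth in cartilage, averaged 4938 ± 1612 CPM (SD, n = 8 plates) with Foxo1 and 4253 ± 1245 CPM without it.

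Few known targets of FoxO factors could be compared. Of 36 listed, 19 were in the table, which ends at Gm5763, and 4 of these had enough counts to be tested, of which 0 were called, 2 had positive and 2 negative log2 fold changes, and the median was 0.01. Cdkn1b, the cell cycle inhibitor p27, had 0, 241 and 588 CPM with Foxo1 and 22.8, 167 and 318 CPM without it and a log2 fold change of 0.71 ± 0.34 (SE), with an interval of -0.01 to 1.43 and a higher value on 5 of 8 plates. Ccnd2, a D-type cyclin that FoxO factors repress, was lower on 6 of 8 plates, by -0.39 ± 0.21 (SE). Since the list holds genes that FoxO factors raise and genes that they repress, its counts of signs and its median are description only. The other tested targets were Cdkn1a, the inhibitor p21, at 0.23, and Bnip3, a mitophagy receptor, at -0.22. The 15 targets in the table with too few counts had at most 40 UMIs in a group, and by mean CPM 7 were higher with Foxo1, 5 lower and 3 listed at 0 in both. Gabarapl1 averaged 209 CPM with Foxo1 and 155 CPM without it, and Bcl6 64.8 and 30.0 CPM. On the other side Cited2 averaged 69.0 CPM with Foxo1 and 122 CPM without it, and Cat 29.5 and 46.2 CPM.

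The only other FoxO gene with enough counts was Foxo3, which averaged 373 ± 174 CPM (SD, n = 8 plates) with Foxo1 and 369.7 ± 187 CPM without it, a log2 fold change of 0.02 ± 0.23 (SE) with an interval of -0.46 to 0.50. Foxo4 had 4 UMIs with Foxo1 and 6 without, and Foxo6 was listed at 0. For the 28 autophagy genes in the table, 5 were tested and 0 called, with 2 positive and 3 negative values and a median of -0.22. Bag3, a co-chaperone of selective autophagy, had 0.34 ± 0.27 (SE), and Gabarap, a ubiquitin-like protein of the autophagosome membrane, had 0.21 ± 0.18 (SE) and was higher on 6 of 8 plates. Of the antioxidant genes Fth1 alone was tested. The 7 tested genes of cell cycle arrest and G1, Btg2 and Cdkn1b among them, had 4 positive and 3 negative values and a median of 0.12, with 0 called. No gene of S or G2/M phase and none of apoptosis reached the count needed for a test: the 18 S and G2/M genes in the table summed to 25 UMIs with Foxo1 and 53 without.

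The cartilage collagens had positive values, without a call, while other matrix lists were mixed. All 7 cartilage collagens in the table were tested, and all 7 had a log2 fold change above 0, against 49.1% of all genes, with a median of 0.23 and a range of 0.05 to 0.32; 0 were called and 0 had an unadjusted p under 0.05. With total UMIs as the scale 6 of 7 were positive, and with no filter on low counts 2 of 7, in a fit that moved the median of the same 637 genes by -0.25 and left 17.0% of them positive. Col2a1, the main fibrillar collagen of cartilage, had 9437, 14005 and 26577 CPM with Foxo1 and 8635, 12162 and 19827 CPM without it. Its log2 fold change was 0.23 ± 0.12 (SE). Col9a3, a chain of the type IX collagen on the surface of that collagen, had 0.28 ± 0.18 (SE) and was higher on 7 of 8 plates. Col2a1 and Col11a2 were higher with Foxo1 on 5 of 8 plates, and Col9a1, Col9a2, Col11a1 and Col27a1 on 4 of 8. The 11 tested proteoglycans and other matrix proteins had 8 positive and 3 negative values and a median of 0.14, with Dcn, Chad and Cytl1 at an unadjusted p under 0.05 and 0 called. The count for these proteins was 3 of 6 with the 20 most abundant genes left out (median 0.018) and 6 of 10 when cells were thinned and Foxo1 called again (median 0.022).

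Of the 6 tested pericellular and other collagens, 3 were positive and 3 negative. Col6a3, a chain of the type VI collagen around chondrocytes, was lower with Foxo1 on 6 of 8 plates, by -0.55 ± 0.25 (SE), and Col1a2, a chain of type I collagen, was higher on 7 of 8 plates, by 0.35 ± 0.18 (SE). Among 3 hypertrophy and mineralisation genes all fitted values were negative, but the plates were mixed. Ank, an exporter of pyrophosphate and citrate, had -0.66 ± 0.29 (SE). Its lowest, median and highest values were 60.5, 316 and 548 CPM with Foxo1 and 231, 416 and 1042 CPM without it. Enpp1, which makes pyrophosphate outside the cell, had -0.03. Ank and Enpp1 were each lower with Foxo1 on 5 of 8 plates, while Col10a1 was higher on 5 of 8. The 5 tested superficial zone and joint genes had 1 positive and 4 negative values and a median of -0.09: Creb5 had -0.33 ± 0.27 (SE) and Gas1 0.12 ± 0.17 (SE). Of 3 proteases and inhibitors tested, the cathepsin inhibitor Cst3 had 0.03 ± 0.13 (SE) and the lysosomal protease Ctsd 0.25 ± 0.25 (SE).

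Signalling genes were few among those tested. For the FGF pathway 3 of 17 in the table were tested, with Fgfr2 at 0.32 ± 0.31 (SE) beside Fgfr3 and a median of -0.05. In the BMP and TGF-beta pathway, which Grem1 antagonises through its BMP ligands, 4 of 25 were tested, 2 positive and 2 negative, with the ligand Bmp2 at 0.51 ± 0.33 (SE) and the decoy Bambi at -0.67. Frzb, a secreted Wnt antagonist and the single Wnt pathway gene tested, stood at 371 ± 219 CPM (SD, n = 8 plates) with Foxo1 and 394 ± 257 CPM without it. All 4 tested targets of YAP and TEAD were positive, beside 49.1% of all genes, with a median of 0.20 and 0 calls. Among them were the matricellular protein Ctgf at 0.25 ± 0.18 (SE) and the stress gene Gadd45b at 0.33 ± 0.21 (SE). Gadd45b is also on the list of immediate early genes. The 13 tested immediate early genes had 10 positive and 3 negative values, a median of 0.08 and 0 calls; Btg2 was the 1 with an unadjusted p under 0.05, and Egr2, a zinc finger transcription factor, had 0.54 ± 0.34 (SE). When cells were thinned and Foxo1 was called again, 5 of 11 were positive, beside 42.6% of all 277 genes in that fit.

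Lists of energy, cytoskeleton and protein folding genes held values of both signs. Of 22 tested subunits of ATP synthase and cytochrome oxidase, 11 were positive and 11 negative with a median of -0.04, and Cox7c and Atp5j had -0.54 ± 0.27 (SE) and -0.43 ± 0.21 (SE). The 9 actin cytoskeleton genes had a median of -0.05, with Actb positive and Arpc2, a subunit of the actin-branching complex, at -0.36 ± 0.23 (SE). The 6 endoplasmic reticulum genes had a median of -0.08, with the chaperones Dnajb11 at -0.46 ± 0.29 (SE) and Dnajb9 at -0.29 ± 0.43 (SE). Medians were -0.09 over 3 genes of glycolysis and hypoxia, with Eno1 at -0.09, and 0.09 over 3 clock genes, with Dbp at 0.16 and Bhlhe41 at -0.14. The 4 tested surface proteins of skeletal stem cells included Cd9 at 0.13 and Cd63 at -0.20, and the 2 complement genes included C4b at 0.49 ± 0.30 (SE). None of the 9 retinoic acid genes in the table, of 15 listed, had enough counts, with 53 UMIs in all with Foxo1 and 80 without.

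**Figure D4:**
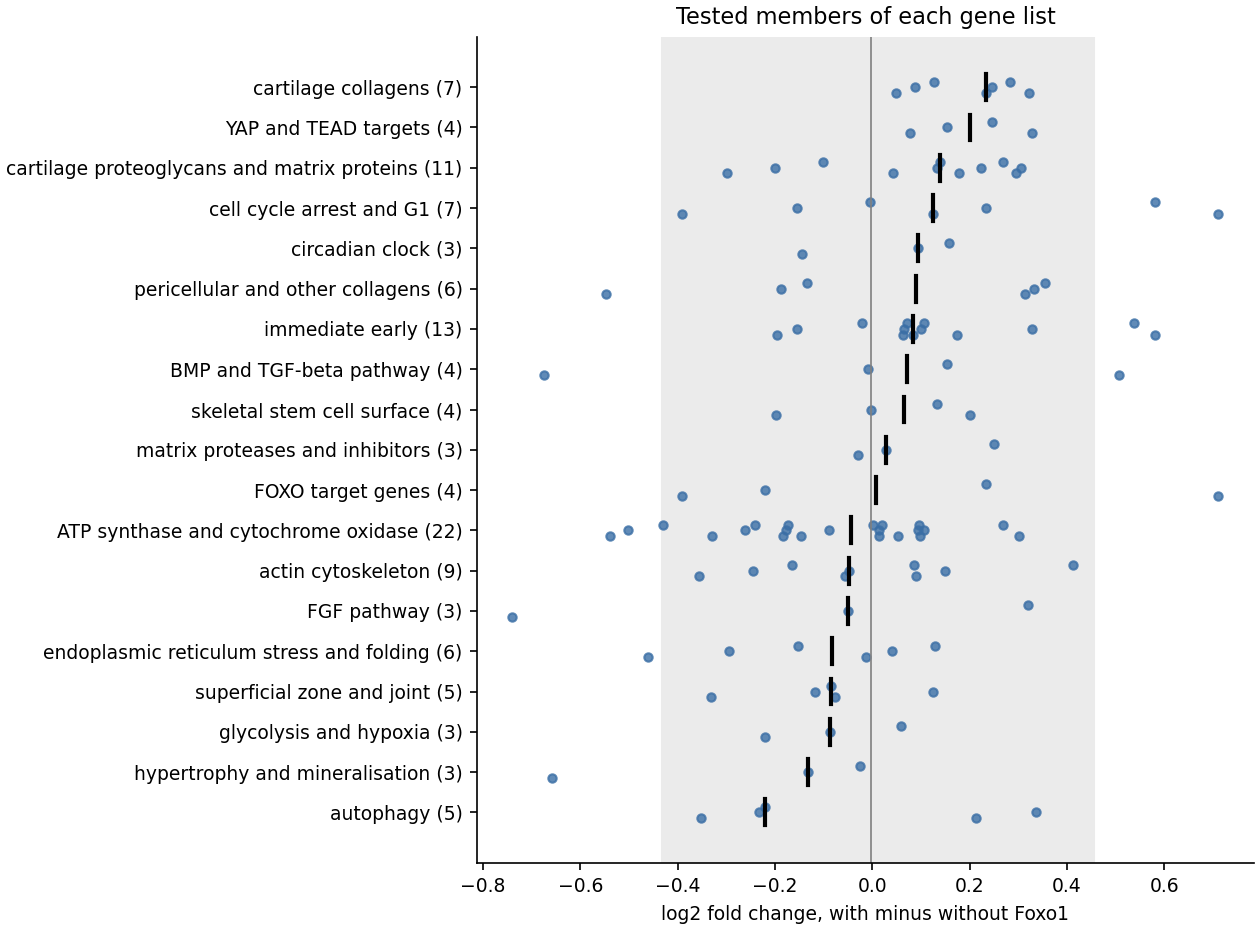
Log2 fold changes of the tested members of each gene list with 3 or more of them (points, number in brackets), with the list median as a black bar. The grey band holds the middle of all 637 genes from the 5th to the 95th percentile, -0.43 to 0.46, and every list median lies inside it.

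Markers of blood, endothelial and marrow stroma cells were sparse, and 2 cells held most of the leukocyte and erythroid UMIs. Endothelial markers summed to 0 UMIs with Foxo1 and 2 without, and marrow stroma markers to 8 and 7. Leukocyte markers summed to 117 UMIs with Foxo1 and 38 without, with a lowest, median and highest of 0, 183 and 4071 CPM over the plates with Foxo1 and 0, 109 and 536 CPM without; 89 of the 117 came from 1 cell of plate 8, which held 85 UMIs of the granule protein Camp, 113 of Actb and 3 of Foxo1. Erythroid markers summed to 20 and 1 UMIs, 19 of them in 1 cell of plate 7. C1qa, Alas2 and Epor were at 0. Without these 2 cells 0 of 602 genes were called, and the log2 fold changes of Actb, Col8a2 and Btg2 were 0.40, 1.22 and 0.59. Osteoblast markers were present in both groups: the 6 genes summed to a lowest, median and highest of 822, 2050.5 and 4783 CPM with Foxo1 and 782, 1464 and 4176 CPM without it, and were higher with Foxo1 on 7 of 8 plates. Most of this was type I collagen and Bglap: Col1a1, too rare to test, averaged 566 CPM with Foxo1 and 346 CPM without it, and Bglap 383 and 347 CPM. Bglap2 and Bglap3 went the other way, with 60.4 and 12.7 CPM with Foxo1 and 95.4 and 48.4 CPM without it. Dmp1 had 0 UMIs with Foxo1 and 2 without. A single cell with Foxo1 held 52 of the 377 osteoblast marker UMIs of that group. The 6 fibroblast and synovium markers summed to 20479.7, 25466 and 33387 CPM with Foxo1 and 15014, 22027 and 26791 CPM without it, higher on 6 of 8 plates, and 3938 of their 3971 UMIs with Foxo1 were Dcn, which chondrocytes also express, while Clec3b was at 0. The part of cells of these types in the other values was not tested.

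The promoters of the genes tested were searched for the forkhead core motif GTAAACA on either strand, in the RefSeq window of 300 bases from 250 before to 50 after each gene's start (GRCm38.p6). The motif lay in the windows of 1095 of 27025 genes (4.05%), and in those of 12 of the 337 tested genes that had a window (3.56%). The 12 genes had log2 fold changes from -0.24 to 0.21 with a median of 0.05, against -0.01 for the other 325; 8 of the 12 were positive and 0 had an unadjusted p under 0.05. None of the 41 genes described above that had a window held the motif there. The 3 stretches are shown because their genes are on the gene lists: Btg1, an antiproliferative relative of Btg2, the collagen VI chain Col6a1 and the cytochrome oxidase subunit Cox7a2. They are written 5′ to 3′ along the gene, with the motif, or its reverse complement TGTTTAC for Btg1, in capitals.
Btg1: gggggtttattTGTTTACaagcagattac
Col6a1: actctgagtggGTAAACAtcccacacacc
Cox7a2: tccttcagactGTAAACAatggctcaaag
The Btg1 stretch is chr10:96616786-96616814 on the plus strand, that of Col6a1 chr10:76726238-76726266 on the minus strand and that of Cox7a2 chr9:79760048-79760076 on the minus strand. Btg1, Col6a1 and Cox7a2 had log2 fold changes of -0.15, -0.19 and 0.05, none of which passed. A match of letters shows neither binding nor its absence.

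Equalising depth left 0 genes called, among fewer genes than the 637 of the main test. Each cell was thinned to 759 UMIs, the 10th percentile, in 20 random draws; 303 cells were deep enough and 34 were not, 9 with Foxo1 and 25 without. With the groups kept, 0 genes were called in each draw, of a median of 287 tested, and Btg2, Actb and Dcn had log2 fold changes of 0.57, 0.33 and 0.28 as medians over draws. With Foxo1 called again in the thinned counts, a median of 74.5 cells had it, 0 genes were called in each draw and the same values were 0.36, 0.19 and 0.12. Chad went from 0.31 to 0.24 and then to -0.01, and Cytl1 from 0.13 to 0.08 and then to 0.007. With each plate divided at its median depth instead (279 cells), Btg2, Actb and Chad had 0.55, 0.30 and 0.26. Dcn and Cytl1 had 0.045 and 0.037 in that fit. Col8a2, Ctcfl, F13a1, Bambi, Fgfr3 and Cdkn1b had too few counts for a value in either thinned fit or in that division. Their contrasts were thus not checked at equal depth. Fxyd6 had a value only in that division, -0.67. Actb, Btg2 and the cartilage collagens thus kept their sign at equal depth, with smaller values than before when Foxo1 was called again (collagen median 0.16, 7 of 7 positive).

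The same division was made in the other Grem1-lineage cells, 86 with Foxo1 and 261 without over all 8 plates. These other cells varied in their markers. Over the plates their summed osteoblast markers ran from 758 to 55705 CPM and their leukocyte markers from 10.3 to 6056 CPM. Whether their cell types differed between the Foxo1 groups was not tested. The tests used the 7 plates with at least 5 cells in each of the 4 sums, which left out plate 8. Log2 fold changes of articular-like cells are given from all 8 plates, so the values set side by side do not subtract to the fitted difference. The difference between the contrast in articular-like cells and in these cells passed for 0 of 1317 genes (0%). Actb and Btg2 had 0.44 and 0.54 in the other cells, next to 0.41 and 0.58 here. Fxyd6 had the lowest p of this test in edgeR, with 0.56 in the other cells and -0.73 in articular-like ones (difference -1.41, adjusted p = 0.785), and Fgfr3 and Bambi had 0.39 and 0.75 there against -0.74 and -0.67 here. This count of 0 rested on the plates: without plate 5 it was 2 (Ctcfl and Gm42856), and without plate 7 it was 1 (Col1a1). In the other cells alone, 0 of 1383 genes were called, with 63 at an unadjusted p under 0.05.

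Plates 1, 2 and 4 had lower Actb than plates 5 to 9 in both groups, and the contrast was also taken within each of these sets, a split that earlier results of these data set and the labels do not name. Within plates 1, 2 and 4, 0 of 742 genes were called, and within plates 5 to 9, 0 of 624. The contrast differed between the sets for 0 of 637 genes (0%). Actb had 0.44 and 0.39 in the 2 sets, Btg2 0.86 and 0.42, Acan 0.47 and 0.15, and Ctcfl 2.46 and 2.43. In the same order Col2a1 had 0.56 and 0.03, and Ank -1.27 and -0.10. Each Ctcfl value rested on 1 cell, with 65 UMIs on plate 2 and 245 on plate 7. Gm44705 changed sign, from -0.13 to 1.27. No batch is named in the labels beyond the plate.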

How the data were processed

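Single TdTomato-positive cells in 96-well plates were sequenced with UMIs on a NextSeq 500. The deposited table holds UMI counts per gene and cell, not normalised, made by the authors with STAR, featureCounts, UMI-tools and SAMtools on mm10, as the submitters' processing notes list them (versions not given in the sources used here). The Grem1-lineage table used here ends in an incomplete row, which was dropped. This left 29183 genes, all also among the 50508 of the Lepr-lineage table, and the others were not analysed here. Foxo1 and the 2 genes whose spans overlap it (Gm20402, Gm38034) were removed. UMIs of articular-like cells were summed per plate and Foxo1 group (at least 5 cells each) and tested in edgeR 4.0.16 (R 4.3.3; quasi-likelihood, TMM, filterByExpr minimum count 5, plate as block, Benjamini-Hochberg over all genes tested, threshold 0.05), with DESeq2 1.42.0 as an alternative. CPM use TMM-scaled totals. In the label check they use total UMIs. Doublets were not called. Cells were sorted singly into wells, and whether a well held more than 1 cell was not tested. The plate pairs the groups: deviations of log CPM from the group means correlated by 0.249 on average within a plate (0.066 to 0.388, above 0.1 on 7 of 8) and by -0.036 between plates.

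Genes named are the 10 with the lowest p in each direction, the 9 genes of the study's markers and of the rule, and up to 2 tested members of lowest p per gene list, plus genes given where a count needed a name. The members and lists were chosen with earlier results of these data known. The script was tested on simulated data. Alternatives covered depth, scaling, filters, thresholds and each plate left out. The 2 that leave out single cells were chosen after seeing the data.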

Additional observations from a re-analysis of the deposited data

Results flagged for a closer look

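Of 58 sets of 8 plate values examined for the genes of lowest p and the study's marker genes, 2 held a plate whose gap to its nearest neighbour was large for the range of the set, where chance alone flags about 1 set in 20. Gm14586 in cells with Foxo1 stood at 952 CPM on plate 6, with 637 CPM as the next value, a gap of 0.565 of the range. Cd200 in cells with Foxo1 stood at 313 CPM on plate 4, with 1271 CPM as the next value, a gap of 0.576 of the range. No value was left out for this.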

How the results depend on the processing

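The count of genes that differed between cells with and without Foxo1 was 0 with the plate block, and 0 with no replicate block, under DESeq2, DESeq2 size factors, total UMIs and each other alternative apart from 2. With no filter on low counts it was 4 of 9689 (Ctcfl, Fth1, Gm1821 and 1700034H15Rik, the last with 0 UMIs in cells with Foxo1 and 35 in 3 cells without), and with the rule at 5% of UMIs it was 1 (Btg2). Leaving out 1 plate at a time gave 0 throughout, with a lowest adjusted p in edgeR from 0.0642 (without plate 4) to 0.991 (without plate 2). The difference from the other Grem1-lineage cells was 0 calls, 1 with no filter (Ctcfl), and 0 to 2 as plates were left out. The difference between the plate sets was 0 calls, 1 with no filter (Gm42836), and 0 to 0 as plates were left out. The block changed no call.

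Of the 61 genes named by the rule, 37 kept the sign of their log2 fold change in each alternative that could be fitted, and 43 did when the fit with no filter is set aside. That fit moved the median of the same 637 genes by -0.25, so a turn of sign in it is not particular to a gene, and its negative values were Cd200 -0.053, Cytl1 -0.13, Cnmd -0.049, Clu -0.20, Cilp -0.12, 1500015O10Rik -0.21, Cd9 -0.12, Col2a1 -0.024, Cst3 -0.23, Ctgf -0.014, Dbp -0.087, Foxo3 -0.22, Gabarap -0.041 and Gas1 -0.13. With at least 2 Foxo1 UMIs, on 4 plates, Cd200 was -0.20, Clu -0.49, Cilp -0.0022, Cd9 -0.28, Col1a2 -0.22, Foxo3 -0.44, Frzb 0.22 and Gas1 -0.71. In plates 1, 2 and 4 alone Gm44705 was -0.13, Col10a1 0.029, Clu -0.033, Bnip3 0.048, Creb5 0.19, Foxo3 -0.073 and Frzb 0.34, and in plates 5 to 9 alone Cd200 was -0.0034, 1500015O10Rik -0.042, Cst3 -0.077 and Fgfr2 -0.17. With at least 500 genes per cell Cd200 was -0.047, Clu -0.038, Bnip3 0.067, C4b -0.029, Eno1 0.032 and Foxo3 -0.086. Thinned with Foxo1 called again, Chad was -0.010, Clu -0.060, 1500015O10Rik -0.035, Cd9 -0.016 and Cst3 -0.077, and with groups kept Cst3 was -0.054. With each plate divided at its median depth, Clu was -0.13, 1500015O10Rik -0.039, Cd9 -0.013 and Cst3 -0.14. With the rule at 5%, Col10a1 was 0.94, Clu -0.046 and Gas1 -0.11. Total UMIs as the scale gave 1500015O10Rik -0.0078, Cst3 -0.026 and Foxo3 -0.025, DESeq2 size factors Frzb 0.0059, no plate block 1500015O10Rik -0.012, a minimum count of 10 Cst3 -0.0074, and no gene minimum Frzb 0.10. Without the deepest 5% of cells Cst3 was -0.033 and Foxo3 -0.14. Without the 2 cells of blood markers Foxo3 was -0.067 and Frzb 0.024, and without the 2 cells of high Ctcfl Frzb was 0.029. Leaving out 1 plate at a time turned the sign of 1500015O10Rik (-0.033 to 0.15), Bnip3 (-0.35 to 0.023), Clu (-0.044 to 0.11), Col10a1 (-0.41 to 0.12), Cst3 (-0.090 to 0.12), Foxo3 (-0.032 to 0.11) and Frzb (-0.18 to 0.30), given as lowest to highest. The cause of these turns was not tested. On depth, 71.2% of the cells with Foxo1 held 1 UMI of it, and the half-width of the interval for genes under 500 CPM was 1.54-fold at the median.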
